A study of Homo sapiens with 6 samples.

Results

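The respiratory chain genes are the genes of the 5 protein complexes in the inner mitochondrial membrane that carry out oxidative phosphorylation. They were chosen by symbol: protein-coding genes whose symbol starts with MT- (mitochondrially encoded), or with NDUF followed by A, B, C, S or V, SDHA to SDHD, UQCR, COX4 to COX8 or ATP5 (nuclear-encoded). The rule used no measured value and gave 111 genes, 13 mitochondrially encoded and 98 nuclear-encoded, of 27455 genes with at least 1 read (16572 of them protein-coding). The nuclear genes divide into complex I (38), the NDUFAF assembly factors of complex I (8), complex II (4), complex III (9), complex IV (19) and complex V (20). Reads were found for 105 of the 111, and 104 had enough to be tested, the 13 mitochondrially encoded and 91 nuclear-encoded genes.

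Polyadenylated RNA was profiled in astrocytes made from H1, an established human embryonic stem cell line, with 3' end libraries, in which a read comes from the end of a transcript. The 2 groups were VM iAst, astrocytes with a ventral midbrain character, and Control iAst, astrocytes with a forebrain character, with 3 libraries each, numbered 2, 3 and 4. Both groups come from the same line, the labels list no other treatment, and their cell type field names the stem cell of origin. That the libraries are separate cultures is not stated in the labels, so the p-values given here reflect no more than the spread among these 6 libraries, which may be technical.

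Complex I (NADH dehydrogenase), complex II (succinate dehydrogenase), complex III (cytochrome bc1) and complex IV (cytochrome c oxidase) pass electrons from NADH and succinate to oxygen, and complexes I, III and IV pump protons that complex V (ATP synthase) uses to make ATP. Complexes I, III, IV and V are built from subunits of both genomes, while complex II is wholly nuclear-encoded. Mitochondrial genes are transcribed as long precursors that are cut into single messages, and nuclear subunits are made in the cytosol and imported. Astrocytes are known for a strong glycolytic metabolism beside their mitochondrial one, and the ventral midbrain holds the dopaminergic neurons in which inhibition of complex I is a known model of Parkinson disease.

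Libraries held 11617935 to 15391082 estimated reads. All 12 astrocyte markers were tested, and their summed level was 5650 to 6490 CPM (reads on the gene scaled to a common library size) in VM iAst and 4940 to 5820 CPM in Control iAst libraries, with 7 positive and 5 negative fold changes. AQP4, SLC1A3 and NFIA passed the test, all 3 higher in VM iAst, while 1.06% of all genes tested were called higher. With any 1 of the 6 libraries left out 0 to 2 of the 12 passed. With the replicate number as a block AQP4, SLC1A3 and NFIA passed as higher and SOX9, CD44 and GJA1 as lower in VM iAst (log2 fold changes of the latter -0.44, -0.61 and -0.70; edgeR adjusted p = 0.0281, 0.00479 and 0.00816). Over all genes tested 3.64% were called higher and 4.5% lower with the block. Of 6 pluripotency markers, summed at 3.25 to 8.7 CPM in VM iAst and 5.92 to 8.64 CPM in Control iAst, 1 (TDGF1) was at 0 in every library. The 8 cycling-cell markers summed to 1220, 4370 and 1120 CPM in VM iAst replicates 2, 3 and 4 and to 821, 2930 and 800 CPM in Control iAst replicates 2, 3 and 4, so replicate 3 stood apart from the other libraries in both groups. In bulk samples, fewer cells of a type and less RNA per cell cannot be told apart.

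Counting of the mitochondrially encoded genes meets copies and overlaps, and the sequences show where. MTND1P23, a nuclear pseudogene on chromosome 1 (629062 to 629433, GRCh38), matches positions 608 to 956 of the 956-base MT-ND1 transcript, counted from its first base, at 349 aligned bases with 2 mismatches, G742A and A798G (99.4% identity). After the second mismatch the last 158 bases, where 3' end reads fall, are identical. The window with both mismatches is shown from the GENCODE 29 transcripts (GRCh38), for MT-ND1 at chrM:4033-4119 and for MTND1P23 at chr1:629203-629289, both on the plus strand, with the bases that differ in capitals.
MT-ND1: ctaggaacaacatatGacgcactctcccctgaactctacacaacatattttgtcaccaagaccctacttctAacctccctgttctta
MTND1P23: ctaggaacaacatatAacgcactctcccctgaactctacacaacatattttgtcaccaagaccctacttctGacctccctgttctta
A further pseudogene, MTATP6P1, differs from the 681-base MT-ATP6 at 10 positions (98.5% identity). MT-ATP8 and MT-ATP6 are read from 1 message and share 46 bases at chrM:8527-8572, shown here with the start codon of MT-ATP6 and the stop codon of MT-ATP8 in capitals.
MT-ATP8 and MT-ATP6: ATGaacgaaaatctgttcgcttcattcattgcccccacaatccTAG
MT-ND4L and MT-ND4 likewise share 7 bases.

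No respiratory chain gene passed the test between VM iAst and Control iAst in the main fit, which leaves the replicate number out. Of the 104 tested genes 0 were called by edgeR's quasi-likelihood test at an adjusted p under 0.05, 1 (NDUFS3) had an unadjusted p under 0.05, and DESeq2 and limma voom each called 0. Over all 15984 genes tested, 344 (2.15%) were called by edgeR, 1.06% higher and 1.09% lower in VM iAst, and 1919 (12.0%) had an unadjusted p under 0.05, while DESeq2 called 4.2% of its 17317 genes and voom 1.66%. The median log2 fold change, VM iAst over Control iAst, was -0.10 for the 13 mitochondrially encoded genes (3 positive, 10 negative) and 0.05 for the 91 nuclear-encoded genes (57 positive, 34 negative), against 0.01 over all genes tested (51.7% positive). These medians changed sign with single libraries: without VM iAst replicate 2 the nuclear median was -0.07, and without Control iAst replicate 4 the mitochondrial one was 0.01.

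A missed threshold does not show that levels were alike, so the intervals are given. For 100 of the 104 genes the 95% interval of the fold change in the main fit lay within 2-fold either way. These were 12 of 13 mitochondrially encoded and 88 of 91 nuclear-encoded genes. That was so for 53.7% of all genes tested, and for 84.2% of the 7947 genes at least as high in mean CPM as the 10th percentile of the nuclear-encoded members. Neither set was matched to the members in level, so these shares do not compare the members with genes of like level. The 4 exceptions were MT-ATP8, NDUFA4L2, UQCRHL and COX6B2, the last 2 with at most 5.23 CPM in any library.

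**Figure D1:**
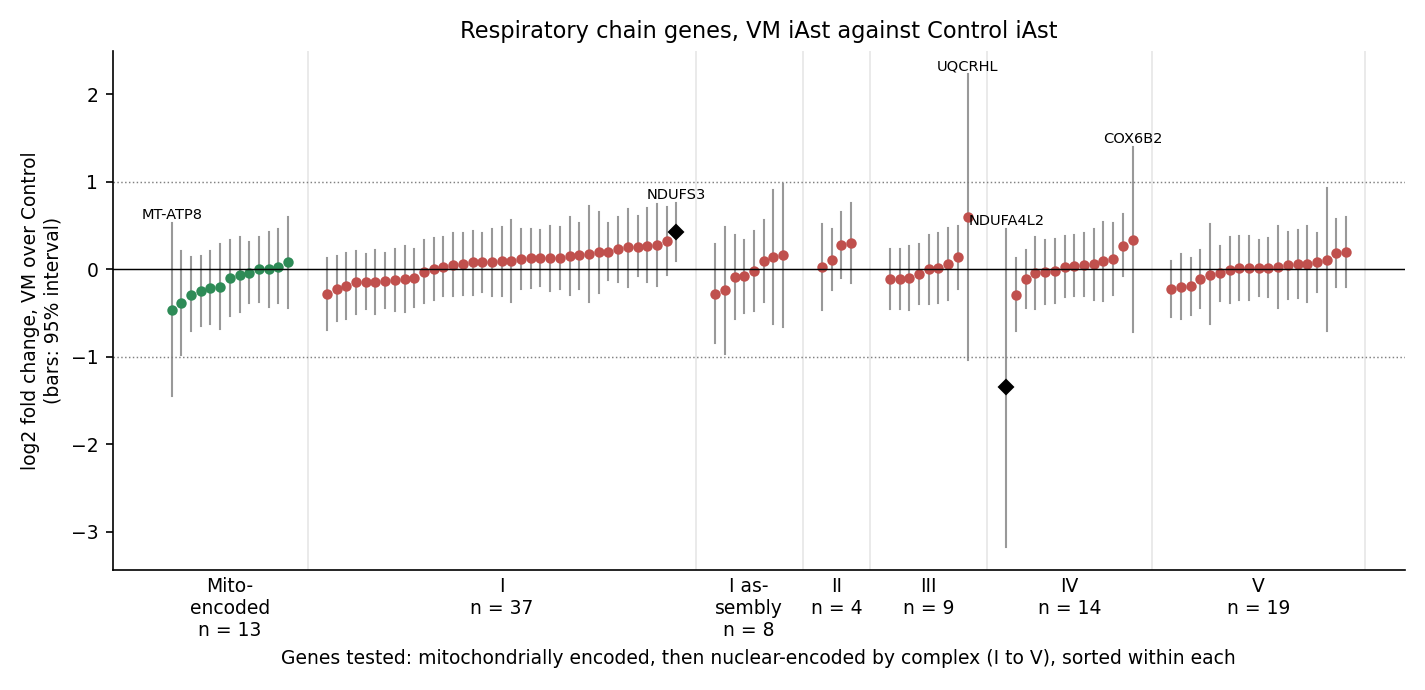
Log2 fold changes (VM iAst over Control iAst, y axis) with 95% intervals for the 104 tested genes, mitochondrially encoded genes in green and nuclear-encoded genes in red by complex. Dotted lines mark 2-fold, black diamonds mark NDUFS3 and NDUFA4L2, which passed in the fit with the replicate number as a block, and the genes named besides NDUFS3 are the 4 whose intervals reach beyond 2-fold.

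The same-numbered libraries of both groups deviated together, and with the replicate number as a block 2 of the 104 genes passed, against 1301 of 15984 genes overall (8.14%). NDUFS3 was higher in VM iAst (edgeR with the block, adjusted p = 0.0471; 3.64% of all genes were called higher) and NDUFA4L2 lower (adjusted p = 0.00114; 4.5% were called lower). The libraries of VM iAst and Control iAst did not overlap for 3 genes that were higher in VM iAst (NDUFS3, NDUFA9 and SDHD) and 2 that were lower (NDUFAF7 and ATP5ME), against 9.17% and 8.75% of all genes tested (17.9% in either direction). NDUFA9 and NDUFAF7 are named after their values were seen.

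The 13 mitochondrially encoded genes spanned 99.7 to 10900 CPM, a scale of 3' reads that does not grow with transcript length. MT-CO3, a core subunit of complex IV, was highest on average, with 10200, 10800 and 9940 CPM in VM iAst and 9250, 10900 and 10700 CPM in Control iAst replicates 2, 3 and 4. MT-ND6, a complex I subunit and the one mitochondrial member encoded on the opposite strand, had the lowest counts. It had 126, 215 and 99.7 CPM in VM iAst and 166, 215 and 196 CPM in Control iAst. Polyadenylated RNA was profiled, so counts also depend on how well the tail of a message is captured, which was not tested. VM iAst replicates 2 and 4 lay below every Control iAst library for MT-ND6, and VM iAst replicate 3 lay level with the highest Control iAst library. Its log2 fold change was -0.39 ± 0.26 (SE; edgeR adjusted p = 0.663) and -0.77 (adjusted p = 0.0937) without VM iAst replicate 3. No source used here says if the reads were counted by strand, so reads of MT-ND6 and of its opposite strand cannot be told apart.

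The other complex I genes of the mitochondrial genome differed in sign. MT-ND4 had 7330, 8150 and 6890 CPM in VM iAst and 7440, 9000 and 10800 CPM in Control iAst (log2 fold change -0.29 ± 0.19, SE; edgeR adjusted p = 0.645). MT-ND3 had 4800, 6050 and 5710 CPM in VM iAst and 5260, 6520 and 7370 CPM in Control iAst (-0.21 ± 0.19, SE; adjusted p = 0.761). Both were lower in VM iAst in each of the 3 numbered pairs, although the groups overlapped. MT-ND2 had 6690, 9230 and 4840 CPM in VM iAst and 6600, 5790 and 7250 CPM in Control iAst (0.08 ± 0.23, SE; adjusted p = 0.950), and MT-ND5 averaged 1960 ± 429 CPM in VM iAst and 1960 ± 194 CPM in Control iAst (SD, n = 3 each; log2 fold change -0.00 ± 0.19, SE). The highest and lowest libraries of MT-ND2 and of MT-ND5 were both VM iAst ones, replicates 3 and 4. MT-ND4L averaged 644 ± 110 CPM in VM iAst and 629 ± 113 CPM in Control iAst (SD, n = 3 each), and together with MT-ND4, whose first bases it shares, 8100 ± 715 CPM in VM iAst and 9720 ± 1670 CPM in Control iAst.

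MT-ND1 counts depend on how reads are divided between it and its nuclear copy. MT-ND1 had 1260, 1410 and 946 CPM in VM iAst and 1210, 1130 and 1530 CPM in Control iAst (log2 fold change -0.10 ± 0.20, SE; edgeR adjusted p = 0.920). MTND1P23 was assigned 30956 to 56843 reads per library against 13167 to 20206 for MT-ND1, that is 68.6% ± 3.74 of the reads of the pair in VM iAst and 72.3% ± 2.18 in Control iAst (SD, n = 3 each). The share of the pseudogene was lower in VM iAst in 3 of 3 numbered pairs, with overlapping groups. Summed, the pair had 3520, 4910 and 3160 CPM in VM iAst and 4010, 4210 and 5830 CPM in Control iAst. From which genome these reads came cannot be told apart over the identical last 158 bases. The other mitochondrial pseudogenes took few reads, at most 4423 per library (MTATP6P1, against 73401 to 110797 for MT-ATP6).

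The remaining mitochondrial genes encode the proton-pumping core of complexes III and IV and the membrane part of complex V. MT-CYB, cytochrome b of complex III, averaged 3290 ± 389 CPM in VM iAst and 3430 ± 701 CPM in Control iAst (SD, n = 3 each; log2 fold change -0.06 ± 0.20, SE; edgeR adjusted p = 0.957). MT-CO1, the catalytic subunit of complex IV, averaged 2060 ± 210 CPM in VM iAst and 2130 ± 64.5 CPM in Control iAst (-0.04 ± 0.16; adjusted p = 0.963). MT-CO2, which receives electrons from cytochrome c, had 4100, 3890 and 4100 CPM in VM iAst and 3990, 5740 and 4630 CPM in Control iAst (-0.25 ± 0.18; adjusted p = 0.684). The groups overlapped for each of these 3 genes.
MT-ATP6, the proton channel subunit of complex V, had 4940, 7190 and 5550 CPM in VM iAst and 5370, 6490 and 8380 CPM in Control iAst (-0.20 ± 0.22, SE; edgeR adjusted p = 0.831). MT-ATP8, a small membrane subunit, had 3560, 7400 and 3520 CPM in VM iAst and 4940, 4560 and 10400 CPM in Control iAst (-0.46 ± 0.42; 95% interval -1.45 to 0.53; adjusted p = 0.777). For MT-ATP8 1 library of each group stood high, VM iAst replicate 3 and Control iAst replicate 4. Without VM iAst replicate 3 its log2 fold change was -0.91, and without Control iAst replicate 4 it was 0.01. With MT-ATP6 added, the sum was 10700 ± 3370 CPM in VM iAst and 13400 ± 4680 CPM in Control iAst (SD, n = 3 each). MT-ATP8 took 41.9%, 50.7% and 38.8% of the reads of both in VM iAst and 47.9%, 41.3% and 55.3% in Control iAst. Both genes are read from 1 message that ends beyond MT-ATP8, so this division is no measure of separate levels. How it arose was not tested.

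**Figure D2:**
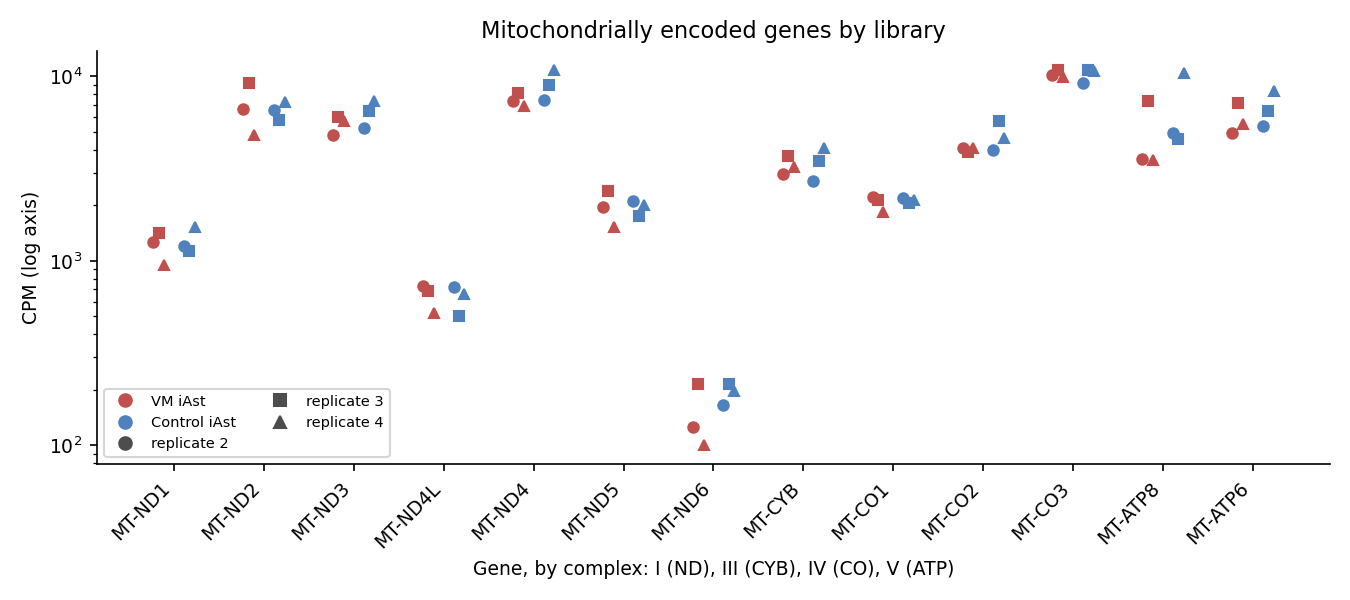
CPM (log axis) of the 13 mitochondrially encoded genes in each library, VM iAst in red left of Control iAst in blue, with the marker shape giving the replicate number. The groups overlap for every gene, from MT-ND6 at 99.7 to 215 CPM to MT-CO3 at 9250 to 10900 CPM.

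Summed over members, the mitochondrially encoded genes took 5.13%, 6.53% and 5.09% of the reads on annotated genes in VM iAst replicates 2, 3 and 4, and 4.93%, 5.92% and 6.59% in Control iAst replicates 2, 3 and 4. The means were 5.58% ± 0.82 in VM iAst and 5.81% ± 0.839 in Control iAst (SD, n = 3 each), a difference smaller than either SD. Without VM iAst replicate 3 the difference was -0.700 percentage points, and without Control iAst replicate 4 it was 0.164. Mitochondrial ribosomal RNAs, which are no members, took 5.24% ± 0.729 in VM iAst and 5.26% ± 0.102 in Control iAst.
The nuclear-encoded genes took 1.30%, 1.13% and 1.06% in VM iAst and 1.15%, 1.08% and 1.03% in Control iAst. Each VM iAst library was above the Control iAst library of the same number, but the groups overlapped, at 1.16% ± 0.122 in VM iAst and 1.09% ± 0.0568 in Control iAst. The difference of 0.077 percentage points was 0.009 without VM iAst replicate 2, 0.128 without VM iAst replicate 4 and 0.049 without Control iAst replicate 4. The summed cycling-cell markers given above were likewise higher in VM iAst in each numbered pair, and their part in the nuclear share was not tested. Of the 8 markers 0 were called, and 3 were called higher with the block, against 3.64% of all genes tested. Nuclear complex I took 0.339% ± 0.028 in VM iAst and 0.309% ± 0.0154 in Control iAst, and complex II 0.0214% ± 0.00296 in VM iAst and 0.0174% ± 0.00096 in Control iAst, 1.10 and 1.23 times as much. For complexes III, IV and V that ratio was 1.03, 1.06 and 1.07. Mitochondrially encoded reads were 4.84 ± 0.912 times the nuclear-encoded ones in VM iAst and 5.38 ± 1.05 times in Control iAst (SD, n = 3 each).

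**Figure D3:**
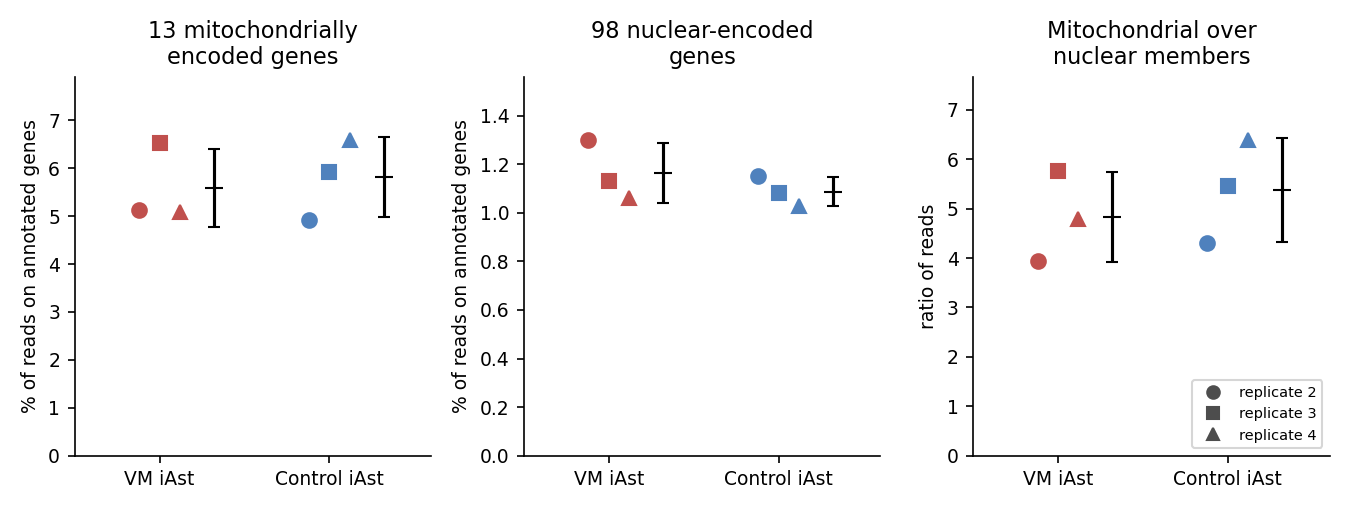
Percent of reads on the 13 mitochondrially encoded genes, on the 98 nuclear-encoded genes, and the ratio of both, for each library (marker shape by replicate number), with mean and SD (n = 3) as black bars. The groups overlap in all panels: the nuclear share is 1.06% to 1.30% in VM iAst and 1.03% to 1.15% in Control iAst.

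Of the 37 tested nuclear genes of complex I, 26 had a positive and 11 a negative fold change, and the median was 0.09 on the log2 scale. NDUFS3, a core subunit of the peripheral arm that lies in the part where ubiquinone is reduced (chromosome 11, 47565336 to 47584562, GRCh38), had 122, 105 and 105 CPM in VM iAst and 85.4, 89.2 and 72.8 CPM in Control iAst. Every VM iAst library was above every Control iAst one. Its log2 fold change was 0.43 ± 0.15 (SE; 95% interval 0.09 to 0.76; edgeR adjusted p = 0.246), and adjusted p was 0.0471 with the block and up to 0.617 over the alternatives tried. NDUFA9, an accessory subunit of the same arm, had 60.8, 59.6 and 57.2 CPM in VM iAst and 55.9, 49.9 and 42.4 CPM in Control iAst (0.26 ± 0.16; adjusted p = 0.591). NDUFB6, an accessory subunit of the membrane arm, had 43.5, 40.3 and 32 CPM in VM iAst and 32.7, 31.1 and 28.7 CPM in Control iAst (0.32 ± 0.18; adjusted p = 0.532). The most abundant members were NDUFS5, at 272 ± 46.5 CPM in VM iAst and 232 ± 23.4 CPM in Control iAst, and NDUFB1, at 162 ± 28.3 CPM in VM iAst and 156 ± 7.91 CPM in Control iAst (SD, n = 3 each; adjusted p = 0.682 and 0.953). Of these genes NDUFS3, NDUFA9, NDUFB6 and NDUFS5 were higher in VM iAst in 3 of 3 numbered pairs. The share of all genes tested that did so was not counted, so this is a description only. The lowest fold change was that of NDUFB8 at -0.28.

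The 8 NDUFAF assembly factors, which help put complex I together and are not part of it, were measured at 3.33 to 65.6 CPM, with 3 positive and 5 negative fold changes (median -0.05). NDUFAF8 had 49.1, 64.2 and 45.5 CPM in VM iAst and 45.6, 65.6 and 56.4 CPM in Control iAst, highest in replicate 3 of both groups. NDUFAF3 averaged 46.6 ± 5.77 CPM in VM iAst and 43.6 ± 11.4 CPM in Control iAst (SD, n = 3 each). NDUFAF2 and NDUFAF1 had the smallest p-values, with log2 fold changes of -0.28 ± 0.26 and -0.24 ± 0.33 (SE; edgeR adjusted p = 0.764 and 0.867). NDUFAF7, a methyltransferase that acts on a complex I subunit, did not overlap between groups, but by a small margin, at 11.0 ± 0.397 CPM in VM iAst and 11.7 ± 0.331 CPM in Control iAst (SD, n = 3 each; log2 fold change -0.09 ± 0.22).

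All 4 complex II genes had a positive fold change (median 0.20), and 0 passed. SDHD, a membrane anchor subunit, had 17, 16.5 and 14.7 CPM in VM iAst and 12.9, 14.2 and 12 CPM in Control iAst (log2 fold change 0.30 ± 0.21, SE; edgeR adjusted p = 0.656). SDHC, the other anchor, had 132, 124 and 90.9 CPM in VM iAst and 88.9, 91.6 and 104 CPM in Control iAst (0.28 ± 0.17; adjusted p = 0.603). SDHD did not overlap between groups, while for SDHC VM iAst replicate 4 lay among the Control iAst libraries. SDHA, the flavoprotein that oxidizes succinate, averaged 57.1 ± 8.40 CPM in VM iAst and 52.8 ± 3.29 CPM in Control iAst (SD, n = 3 each), and SDHB, its iron-sulfur partner, 19.5 ± 3.53 CPM in VM iAst and 19.1 ± 2.95 CPM in Control iAst.

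The 9 nuclear genes of complex III had 4 positive and 5 negative fold changes (median -0.00). UQCRB, a subunit near the ubiquinone site, averaged 495 ± 43.2 CPM in VM iAst and 534 ± 45.8 CPM in Control iAst, the highest level among nuclear members (SD, n = 3 each; log2 fold change -0.11 ± 0.15, SE; edgeR adjusted p = 0.872). UQCRQ averaged 309 ± 40.0 CPM in VM iAst and 321 ± 20.8 CPM in Control iAst, and UQCRC1, a core protein, 53.4 ± 7.08 CPM in VM iAst and 48.4 ± 4.52 CPM in Control iAst. UQCRH, the hinge subunit that binds cytochrome c1, averaged 204 ± 41.3 CPM in VM iAst and 204 ± 20.9 CPM in Control iAst. Reads given to UQCRHL, its close paralog, at 2.62 ± 2.26 CPM in VM iAst and 1.74 ± 1.08 CPM in Control iAst, are uncertain because of that likeness, and the log2 fold change of 0.60 ± 0.74 (SE) was -0.39 without VM iAst replicate 4.

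Complex IV had 14 tested nuclear genes, with 8 positive and 6 negative fold changes (median 0.04). Its broadly expressed subunits were among the highest nuclear members: COX7C averaged 380 ± 80.2 CPM in VM iAst and 391 ± 53.4 CPM in Control iAst, and COX4I1 331 ± 49.9 CPM in VM iAst and 336 ± 41.5 CPM in Control iAst (SD, n = 3 each; edgeR adjusted p = 0.972 and 0.982). COX8A, COX6A1, COX7A2, COX6B1 and COX7B had log2 fold changes of 0.04, -0.11, 0.03, 0.12 and 0.06, with SE of 0.15 to 0.19. Their paralogs known from muscle, testis, lung or other tissues were at or near the lower limit. COX4I2, COX6A2, COX7B2 and COX8C had 0 reads in every library, which allows a level of up to 0.256 CPM in the shallowest library (3 reads; counting error only), and COX7A1, the heart and muscle form, had 0, 0 and 4 reads in VM iAst and 0, 1 and 4 reads in Control iAst. COX6B2, known from testis, averaged 2.80 ± 0.867 CPM in VM iAst and 2.22 ± 0.362 CPM in Control iAst. The muscle markers summed to 9.41 to 19.5 CPM in VM iAst and 4.31 to 10 CPM in Control iAst, with MYOG at 0. Of these 7 markers 4 were tested, with 1 positive and 3 negative fold changes. By edgeR 0 were called without the block, and DES was called higher in VM iAst with it, as were 3.64% of all genes tested. The remaining untested members were the read-through genes NDUFC2-KCTD14 and ATP5MF-PTCD1, with 0 reads in every library.

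NDUFA4L2 had the largest fold change in size among the 104 tested members. NDUFA4 was first described as part of complex I and later as a subunit of complex IV, and NDUFA4L2, its paralog (chromosome 12, 57234903 to 57240715, GRCh38), is known to be induced in low oxygen through HIF-1 and to mark pericytes in brain. NDUFA4L2 had 13.2, 2.35 and 9.95 CPM in VM iAst replicates 2, 3 and 4 and 35.3, 9.07 and 20.9 CPM in Control iAst replicates 2, 3 and 4, from 203, 30 and 139 reads in VM iAst and 482, 106 and 277 reads in Control iAst. Each VM iAst library lay below the Control iAst library of its number, replicate 3 was lowest in both groups, and the groups overlapped. The log2 fold change was -1.35 ± 0.74 (SE; 95% interval -3.17 to 0.46; edgeR adjusted p = 0.580), and -1.43 ± 0.22 with the block (adjusted p = 0.00114); leaving out each library gave -1.82 to -0.82.
NDUFA4 had 336, 286 and 306 CPM in VM iAst and 299, 232 and 237 CPM in Control iAst (0.27 ± 0.16, SE; edgeR adjusted p = 0.577), higher in VM iAst in 3 of 3 pairs. NDUFA4L2 thus held 3.78%, 0.814% and 3.15% of the reads of both paralogs in VM iAst and 10.5%, 3.76% and 8.13% in Control iAst. The 8 mesenchyme and fibroblast markers, all tested, summed to 467, 425 and 457 CPM in VM iAst and 1490, 904 and 1410 CPM in Control iAst. Like NDUFA4L2, this sum was lower in VM iAst in each numbered pair. Of the 8 fold changes 6 were negative and 2 positive, and 3 genes passed as lower (COL1A1, COL3A1 and PRRX1) and 0 as higher. An unadjusted p under 0.05 (edgeR) was found for 7 of the 8, against 12.0% of all genes tested. The markers with such a p thus went in both directions. Over all genes tested 1.09% were called lower. COL1A1 and PRRX1 also fell with any 1 library left out, whereas COL3A1 did not pass without any one of VM iAst replicates 2, 3 and 4 or without Control iAst replicate 4. COL1A1, a fibrillar collagen gene, had 284, 235 and 311 CPM in VM iAst and 983, 671 and 1080 CPM in Control iAst (log2 fold change -1.72 ± 0.21, SE, edgeR adjusted p = 0.00367). It made up most of the marker sum in every library. The 10 neuron markers, 9 of them tested, summed to 1190, 714 and 1120 CPM in VM iAst and 1640, 1270 and 2010 CPM in Control iAst, also lower in VM iAst in each numbered pair, 0 of them called by edgeR without the block and 4 by DESeq2. With the block 5 fell (DCX, STMN2, NEFL, NEFM and INA, log2 fold changes -2.45 to -1.05, edgeR adjusted p = 0.00352 to 0.0301), against 4.5% of all genes tested. Of the 9 tested neuron markers 4 had a positive and 5 a negative fold change without the block (median -1.14). No marker of either list was at 0 in every library. The 20 glycolysis genes, given below, summed to 9010, 7220 and 7290 CPM in VM iAst and 10300, 8080 and 7690 CPM in Control iAst. This sum was also lower in VM iAst in each numbered pair, with 14 negative and 6 positive fold changes, and PFKP was called higher. The part of mesenchymal cells, neurons or low oxygen in the NDUFA4L2 difference was not tested.

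**Figure D4:**
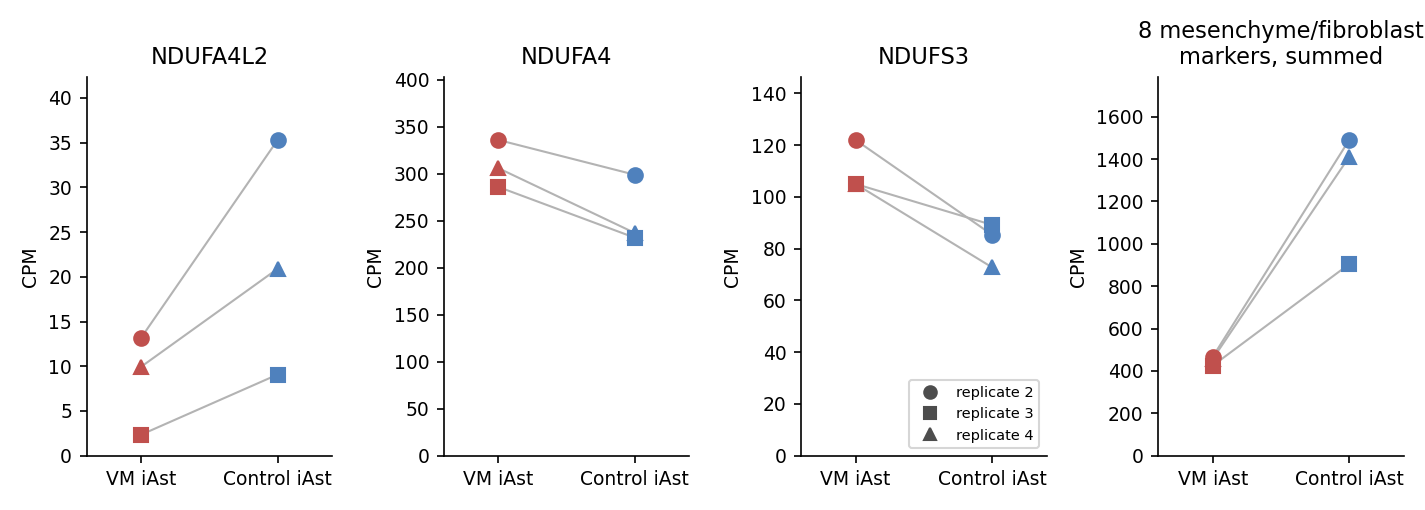
CPM of NDUFA4L2, NDUFA4, NDUFS3 and the summed mesenchyme and fibroblast markers in each library, VM iAst left of Control iAst, with lines joining libraries of the same replicate number. In all 3 pairs NDUFA4L2 and the marker sum are lower in VM iAst and NDUFA4 and NDUFS3 higher.

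Complex V had 19 tested nuclear genes, with 12 positive and 7 negative fold changes between -0.22 and 0.20 (median 0.02). ATP5MG, subunit g of the membrane part, averaged 456 ± 46.1 CPM in VM iAst and 451 ± 13.2 CPM in Control iAst, and ATP5F1E, subunit epsilon of the catalytic head, 445 ± 87.5 CPM in VM iAst and 427 ± 33.8 CPM in Control iAst (SD, n = 3 each; edgeR adjusted p = 0.984 and 0.949). ATP5MGL, a copy of ATP5MG, was at 5.01 ± 1.43 CPM in VM iAst and 4.64 ± 1.07 CPM in Control iAst, and its reads are uncertain because of that likeness. ATP5ME, subunit e, had 149, 135 and 119 CPM in VM iAst and 161, 152 and 158 CPM in Control iAst, with no overlap (log2 fold change -0.22 ± 0.15, SE; adjusted p = 0.633). ATP5MF, subunit f, averaged 68.0 ± 1.46 CPM in VM iAst and 77.8 ± 9.45 CPM in Control iAst (adjusted p = 0.705).

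The genes ATP5MC1, ATP5MC2 and ATP5MC3 encode the same mature subunit c, the ring that turns as protons pass. ATP5MC2 had 446, 330 and 390 CPM in VM iAst and 499, 397 and 442 CPM in Control iAst, lower in VM iAst in each numbered pair (log2 fold change -0.20 ± 0.17, SE; edgeR adjusted p = 0.741). ATP5MC3 had 364, 323 and 264 CPM in VM iAst and 326, 256 and 251 CPM in Control iAst, higher in each pair (0.19 ± 0.18; adjusted p = 0.770), and ATP5MC1 averaged 78.7 ± 18.0 CPM in VM iAst and 75.5 ± 10.7 CPM in Control iAst (SD, n = 3 each). The groups overlapped for all 3 genes.
The 2 transcripts that held nearly all ATP5MC2 reads took them very unevenly from library to library. The shorter one had 6713, 0 and 5202 estimated reads in VM iAst and 0, 4011 and 5335 in Control iAst, and the longer one 142, 4216 and 239 reads in VM iAst and 6823, 624 and 507 in Control iAst. The split differed within each group, while the sum stayed between 4216 and 6855 reads. The longer transcript is not in GENCODE 29 and was added to the sum, since the deposited gene table is rebuilt with it. In that table, whose values carry a factor for the mean transcript length, ATP5MC2 had a normalized signal of 9390, 2090 and 8330 in VM iAst and 3230, 6850 and 8050 in Control iAst. That factor spanned 3.42-fold between libraries for ATP5MC2 and 2.87-fold for SDHC, with a median of 1.15-fold over 104 members. With the deposited values the log2 fold change of SDHC was 0.99 (limma adjusted p = 0.433) in place of 0.28.

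**Figure D5:**
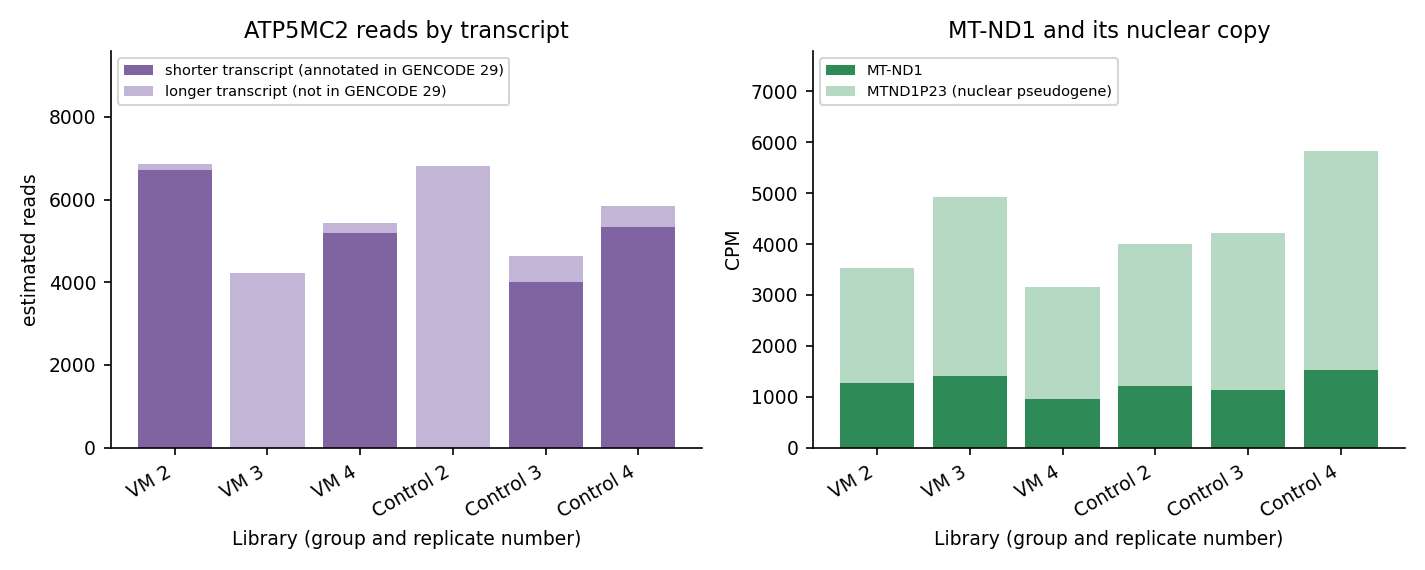
Left, estimated reads of the shorter and longer ATP5MC2 transcripts, stacked, in each library (VM iAst left of Control iAst); right, CPM of MT-ND1 and its nuclear pseudogene MTND1P23, stacked. All reads of VM iAst replicate 3 and nearly all of Control iAst replicate 2 lie on the longer ATP5MC2 transcript, and MTND1P23 takes 64.4% to 73.8% of the reads of its pair.

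Genes that make, supply or control the chain without being members were read from 11 lists of 217 genes: assembly factors of complexes I to V, mitochondrial biogenesis regulators, mitochondrial DNA and RNA maintenance, protein import, the citric acid cycle and the mitochondrial ribosome. Of 214 tested, edgeR called 0, 4 had an unadjusted p under 0.05, DESeq2 called 1 and voom 0. Over all genes tested these shares were 2.15%, 12.0%, 4.2% and 1.66%. The lists had 120 positive and 94 negative fold changes, with list medians from -0.09 to 0.28. UQCC5, an assembly factor of complex III, had 69, 64.1 and 51.1 CPM in VM iAst and 105, 89.1 and 115 CPM in Control iAst (log2 fold change -0.75 ± 0.17, SE; edgeR adjusted p = 0.052, and 0.00539 with the block, where it fell). It was the 1 list gene called lower with the block, where 0 were called higher, against 4.5% and 3.64% of all genes tested. Its VM iAst libraries were all below the Control iAst ones. MRPL32, of the large mitochondrial ribosomal subunit, had 27.2, 28.2 and 25.2 CPM in VM iAst and 15.9, 17 and 20.3 CPM in Control iAst (0.60 ± 0.19; adjusted p = 0.177). The biogenesis regulators had the highest list median, with PPARGC1A (PGC-1 alpha, a coactivator) at 14.3 ± 2.17 CPM in VM iAst and 10.8 ± 3.84 CPM in Control iAst and NRF1 at 8.84 ± 2.55 CPM in VM iAst and 6.29 ± 0.882 CPM in Control iAst (SD, n = 3 each; adjusted p = 0.674 and 0.613).
Of the other genes with the smallest p in a list, TMEM186, SDHAF4, TOP1MT, TOMM70 and PDHX had log2 fold changes of -0.67, -0.21, -0.50, -0.36 and -0.47, and COX18, TMEM70 and SUPV3L1 of 0.40, 0.46 and 0.50 (edgeR adjusted p from 0.366 to 0.871). Of 20 glycolysis genes PFKP, a phosphofructokinase, rose, with 142, 119 and 123 CPM in VM iAst and 71.7, 56.2 and 65.6 CPM in Control iAst (log2 fold change 0.99 ± 0.16, SE; edgeR adjusted p = 0.0104, but 0.0506 without VM iAst replicate 2 and 0.0567 without Control iAst replicate 4). The other 19 did not pass, 14 of the 20 fold changes were negative (median -0.27), and in the fit with the block LDHA and PDK3 were lower in VM iAst (edgeR adjusted p = 0.0334 and 0.0140). Over all genes tested 1.06% were called higher in the main fit and 4.5% lower with the block.

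The choice by symbol did not use promoter sequence. RefSeq promoters (GRCh38.p14, 250 bases before to 50 after the start) were at hand for 78 of the 98 genes and were searched on both strands. The NRF1 core (GCGCA, any base, then GCGC) was in 23.1% of them, against 11.3% of 10880 tested protein-coding genes and 6.28% of all 27305 promoters in the table. The ETS core CCGGAAG, which GABPA can bind, was in 26.9% of them, against 18.5% of tested protein-coding genes and 10.7% of all promoters, and the YY1 core AAGATGGCG, whose first letters can overlap the end of an ETS core, in 10.3% against 3.8% and 1.85%. An NRF1 or ETS core was in 36 of the 78 promoters (46.2%), against 27.4% and 15.7%, so most members with a promoter held neither. The hypoxia response core ACGTG was in 24.4%, against 26.0% and 21.6%. The ERR core TCAAGGTCA was in 1 of the 78 promoters, that of SDHD (1.28%, against 0.175% and 0.359%). NRF1 and ETS factors are known regulators of respiratory chain genes, and a match is a description of letters, not a bound site.
One NRF1 core is shown for a gene of each of complexes I, II, III and V, on either strand, in capitals within 30 bases: NDUFA9 at chr12:4649024-4649053 (plus strand), SDHA at chr5:218144-218173 (plus), UQCRC1 at chr3:48609674-48609703 (minus) and ATP5F1C at chr10:7788145-7788174 (plus).
NDUFA9: ttcttggttaGCGCTTGCGCagacaggcga
SDHA: ggtccgctttGCGCAGGCGCggcgccccca
UQCRC1: gtacggtactGCGCCTGCGCcgcgaccgcc
ATP5F1C: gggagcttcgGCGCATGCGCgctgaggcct
These 4 genes had log2 fold changes of 0.26, 0.11, 0.14 and 0.08. Of the 18 members with an NRF1 core 17 were tested, with 12 positive and 5 negative fold changes, the lowest -0.22 (ATP5ME) and the highest 0.30 (SDHD), and 0 passed with or without the block. The NDUFS3 promoter is shown because NDUFS3 passed with the block, at chr11:47578824-47579073 (plus strand, 250 to 1 bases before the RefSeq start), with ETS cores on either strand in capitals.
NDUFS3: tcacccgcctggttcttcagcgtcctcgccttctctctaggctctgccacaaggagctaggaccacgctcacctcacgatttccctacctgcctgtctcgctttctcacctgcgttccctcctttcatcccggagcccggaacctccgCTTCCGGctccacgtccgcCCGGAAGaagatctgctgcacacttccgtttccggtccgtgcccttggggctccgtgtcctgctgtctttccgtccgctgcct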

How the data were processed

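The authors deposited, for each of the 6 libraries, estimated counts per transcript and TPM, and a gene table of normalized signal. Per the submitters' processing notes they used Salmon (no version), DESeq2 1.27.12 and GRCh38.p13. Estimated counts, as deposited, were summed per gene with GENCODE 29, under current symbols, and rounded; unmatched transcripts held 0.992% to 1.12% of reads. The transcript of ATP5MC2 outside GENCODE 29 was added after the data were seen. The deposited signal equals these sums with a factor for library and transcript length within 0.01 on the natural log scale for 102 of 103 members compared. The deposited TPM were not used.

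edgeR 4.0.16 in R 4.3.3 (filterByExpr, TMM, robust quasi-likelihood, Benjamini-Hochberg over 15984 genes) tested VM iAst against Control iAst without covariates; SE is the absolute log2 fold change over the square root of F, and the common biological coefficient of variation was 0.309. CPM use TMM-scaled library sizes. Alternatives were RLE and upper-quartile scaling, scaling over nuclear genes, DESeq2 1.42.0, limma 3.58.1 voom, no low-count filter or one at 2 CPM in 3 libraries, the deposited signal on log2(value + 1), protein-coding genes alone, pseudogene reads added, a replicate block and leaving out each library; joining the overlapping mitochondrial genes and annotated transcripts alone were added after seeing the data. The script was tested on data simulated with that common coefficient for every gene. Of 100 genes changed 2-fold it called 16, and of 100 changed 4-fold it called 93, with 7 false calls among 116. Since single genes differ from the common coefficient, these shares do not give the power for the members.

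Deviations from the group means correlated at 0.243, 0.354 and 0.201 between same-numbered libraries, against -0.259 to 0.0201 for other pairs. Deviations within a group cancel out, so positive values for same-numbered pairs force lower ones among the others. The replicate number was used as a block in an alternative fit only. The main fit, with its SE and intervals, leaves it out. No label says what the numbers share. Agreement across numbered pairs, wherever given, is a description only, as its share over all genes tested was not counted. Named were the mitochondrial genes, per complex the 2 members with the highest level and the 2 with the smallest p, members past 0.05 in either fit, and tissue paralogs with their partners. NDUFA9, NDUFAF7, NDUFB8, SDHB, ATP5F1C and the read-through genes were named outside this rule. The members and lists were chosen with earlier results of these data known.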

Additional observations from a re-analysis of the deposited data

How the results depend on the processing

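Of the 104 members, 0 were called under every alternative except the replicate block, where 2 were called, both nuclear-encoded. The count over all genes, 344, was 1011 with no filter, 728 with DESeq2, 165 with the deposited values, 1301 with the replicate block, and 134 to 259 with 1 library left out. Leaving out 1 library gave 0 called members in either class, medians of -0.07 to 0.12 (nuclear-encoded) and -0.22 to 0.01 (mitochondrially encoded), and differences in read share of 0.009 to 0.128 and -0.700 to 0.164 percentage points, against 0.077 and -0.227 with all libraries. Pseudogene reads added to their members gave a mitochondrial median of -0.20. Of 890 values for 47 named members, 878 stayed within 1 SE of the reported value on the same side of the threshold, 2 became calls with the block and 10 moved further, among them MT-ND2 at -0.18 without VM iAst replicate 3, COX7C and COX7B at -0.23 and -0.15 without VM iAst replicate 2, COX7B at -0.17 with the deposited values, and ATP5MC2 at 0.12 with annotated transcripts only. After rounding, 21 of the 47 kept the sign of the fold change in all alternatives, where a fold change rounded to no change was counted as not kept. The block changed no other call among members. Depth limits the members near 0, where a count of 0 allows up to 0.256 CPM.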
